A study of Mus musculus with 10 samples.

Results

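Brown adipose tissue of obesity-prone mice was compared with that of obesity-resistant mice that had received the same high-fat diet. The comparison covers every gene with a numeric identifier, 25017 of the 32889 genes in the deposited table, in 6 of the 10 libraries of the series. All libraries were made from total RNA of brown fat of wild-type C57BL/6J mice, an inbred strain whose animals are known to differ in weight gain on fatty food. The labels put 3 libraries in the obesity-prone group (high-fat diet), 3 in the obesity-resistant group (high-fat diet) and 4 in a control group on regular chow. The labels give no age, sex, duration of diet, body weight or rule by which a mouse was called prone or resistant. They do not state that each library is 1 animal, so p-values measure only the spread between these samples. The chow libraries are not a side of the comparison. They enter the filter on low counts, the scaling, the estimate of spread and the gene means behind list levels, and give a reference level.

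Brown fat burns fatty acids and glucose in mitochondria whose inner membrane is made leaky to protons by uncoupling protein 1 (Ucp1), so that energy leaves as heat. Noradrenaline from sympathetic nerves switches this on through beta-adrenergic receptors, cyclic AMP and protein kinase A, and the deiodinase Dio2 adds to it by making active thyroid hormone within the cell. The depot also holds blood vessels, nerves, fibroblasts and macrophages, and in obesity brown fat is known to take up more lipid and to look more like white fat.

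Total expected counts lay between 35583997 and 37327770 per library over the 10 libraries, so that genes with few counts are measured less precisely. Of the 25017 named genes, 16920 passed the filter on low counts and 8097 did not. Values are counts scaled to library size as CPM, with library sizes normalised by the TMM method, given for replicates 1, 2 and 3 of a group in that order. Ucp1, which defines brown fat, was present in every library, at 6815, 8461 and 2882 CPM in obesity-prone, 8653, 9753 and 9139.7 in obesity-resistant and 6240.3 to 10271 in chow libraries. Obesity-prone replicate 3 stood apart from the other 5 high-fat-diet libraries. It was the highest of the 6 in 30.9% and the lowest in 31.1% of the named genes tested, and on the component that held 44.8% of the variance of the 6 libraries it lay at -80.0 against -25.2 to 40.3 for the others. The library labelled obesity-prone replicate 2 correlated better with obesity-resistant replicate 1 (Pearson r of log2 CPM across genes 0.985) than with obesity-prone replicates 1 (0.980) and 3 (0.963); genes are not independent replicates. The median over genes of the SD of log2 CPM was 0.25 in obesity-prone, 0.14 in obesity-resistant and 0.20 in chow libraries. Results that rest on obesity-prone replicates 2 or 3 are given below with and without them.

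No gene passed the test. edgeR's quasi-likelihood test called 0 of 19676 genes (0%) at an adjusted p below 0.05, and its lowest adjusted p was 0.230. At an unadjusted p below 0.05 there were 3030 genes (15.4%), of which 1925 had higher values in obesity-prone libraries (9.78%) and 1105 lower values (5.62%). DESeq2, run as an alternative, called 565 of the 16976 genes to which it gave an adjusted p (3.33%), 401 higher (2.36%) and 164 lower (0.966%). Without obesity-prone replicate 2, edgeR called 871 of 20211 genes (4.31%), 662 higher (3.28%) and 209 lower (1.03%), and 403 genes were in both lists, 71.3% of the DESeq2 calls and 46.3% of the others. In 3884 genes (19.7%) the groups did not overlap, with all 3 obesity-prone libraries above all 3 obesity-resistant ones in 1965 (9.99%) and below them in 1919 (9.75%). Among the 14243 protein-coding genes tested, 12.1% did not overlap upward and 9.03% downward. An unadjusted p below 0.05 was found for 12.3% of them with higher and 4.82% with lower values. The accounts below therefore give values and counts beside these shares, and "did not overlap" is a statement on the 6 libraries and not a test. Fold changes are log2, obesity-prone minus obesity-resistant, from the edgeR fit, whose adjusted p was at least 0.230 for every gene named. Their standard errors (SE) were derived as the absolute fold change divided by the square root of the test's F statistic. For the 1849 named genes higher in obesity-prone libraries without overlap, the chow mean lay between both diet groups' means in 52.6%, above both in 10.3% and below both in 37.2%. For the 1644 lower ones it lay between them in 47%, above both in 42.1% and below both in 10.9%.

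The 12 protein-coding genes of lowest p with higher values in obesity-prone libraries include H2-Ab1, H2-Aa and Cd74 of antigen presentation. They were taken only from genes without overlap and with at least 1 CPM on average in a diet group. The same holds for the 12 lower genes below. H2-Ab1, the beta chain of the MHC class II molecule I-A (identifier 14961, chromosome 17, 34263227 to 34269418), stood at 34.2, 27.03 and 45.8 CPM in obesity-prone and 17.8, 15.7 and 17.1 CPM in obesity-resistant libraries. Its log2 fold change was 1.08 ± 0.18 (SE, DESeq2 adjusted p = 0.000158), and chow libraries lay at 24.3 to 33.02 CPM. H2-Aa, the alpha chain of the same molecule, stood at 36.7, 29.99 and 53.8 against 20.2, 16.5 and 19.1 CPM, with 28.1 to 38.3 CPM on chow. Cd74, the invariant chain that guides class II molecules through the cell, stood at 132, 97.5 and 172 against 63.7, 52.7 and 61.996 CPM, with 75.9 to 109.8 CPM on chow. For these 3 genes every obesity-resistant library lay below every obesity-prone and every chow library. Ciita, the coactivator that switches on class II genes, had 4.33, 4.51 and 6.69 against 2.09, 2.9002 and 2.58 CPM, again without overlap. H2-Eb1, another class II beta chain gene, had 10.96, 10.47 and 14.9 against 10.48, 6.26 and 8.39 CPM. Its groups overlapped by 1 pair of libraries of nearly equal value. Ciita and H2-Eb1 were chosen after their values were seen. In the list of MHC class II and dendritic cell genes, 4 of 13 tested members did not overlap upward (30.8%, against 9.99% of all genes) and 1, the dendritic cell factor Zbtb46, did so downward, at 83.2, 79.8 and 83.4 against 95.4, 90.8 and 88.8 CPM. The list's median log2 fold change was 0.77, and 0.76 and 1.005 without obesity-prone replicates 3 and 2, against -0.007 over all genes tested. Xcr1 and Cd209a, dendritic cell surface genes of the same list, had log2 fold changes of -0.44 and -0.13. In whole tissue, fewer cells of a type and less RNA per cell cannot be told apart.

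Class II promoters are known to carry a conserved block upstream of the start, whose Y box holds the inverted CCAAT sequence and whose neighbouring X box includes a site resembling a cyclic AMP response element. No window of H2-Ab1, Cd74 or Ciita was searched. Of the class II genes whose windows were searched, H2-Aa and H2-Eb1 hold the Y box letters, and H2-DMa, H2-DMb1 and H2-Ob do not. The 250 bases before the annotated start of H2-Aa and H2-Eb1 are printed 5′ to 3′ on the gene's strand (RefSeq, GRCm38.p6). They are shown because H2-Aa is among the genes with the lowest p and Ciita, which acts at this block, is described above. Capitals mark exact matches to CTGATTGG (the Y box) and TGACGTCA (the cyclic AMP response element).
H2-Aa: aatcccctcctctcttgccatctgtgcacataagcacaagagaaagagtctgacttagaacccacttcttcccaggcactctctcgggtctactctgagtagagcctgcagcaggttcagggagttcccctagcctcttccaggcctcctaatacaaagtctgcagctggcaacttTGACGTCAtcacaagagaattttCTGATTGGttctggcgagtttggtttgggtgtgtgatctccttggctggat
H2-Eb1: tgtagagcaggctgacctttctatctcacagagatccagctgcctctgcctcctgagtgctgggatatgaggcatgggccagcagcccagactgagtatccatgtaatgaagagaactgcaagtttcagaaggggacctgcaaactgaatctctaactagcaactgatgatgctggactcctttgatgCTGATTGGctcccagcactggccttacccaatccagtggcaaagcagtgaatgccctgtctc
The H2-Aa window is chr17:34287824-34288073 on the minus strand, with the Y box letters 51 to 44 and TGACGTCA 74 to 67 bases upstream of the start. That of H2-Eb1 is chr17:34305617-34305866 on the plus strand, with the Y box letters 62 to 55 bases upstream. Both strands were searched, and the motifs do not overlap each other. CTGATTGG occurs in 1258 of 32851 windows of this length before RefSeq starts (3.83%) and TGACGTCA, which reads the same on both strands, in 508 (1.55%). A match is a description of the letters and says nothing on binding in these samples.

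Other genes with low p-values and higher values in obesity-prone libraries include surface proteins and secreted proteins of several cell types. Csf1r, the receptor through which macrophages receive their survival signal, stood at 43.3, 22.3 and 52.5 against 13.7, 15.8 and 15.3 CPM (1.40 ± 0.28, DESeq2 adjusted p = 0.00116), with 18.5 to 29.7 CPM on chow. Hvcn1, a voltage-gated proton channel of phagocytes and B cells (identifier 74096, chromosome 5, 122206805 to 122242297), stood at 3.51, 2.72 and 5.63 against 1.33, 1.34 and 1.54 CPM. Cd300ld, a receptor of myeloid cells, stood at 5.65, 3.45 and 9.32 against 1.78, 1.72 and 1.89 CPM. In all 3 genes obesity-prone replicate 2 was the lowest of its group and replicate 3 the highest. The 3 obesity-prone libraries lay closer together for Cyr61, Ephx1 and Trip6. Cyr61, a matrix-associated protein made in response to stretch and growth factors (identifier 16007, chromosome 3, 145646971 to 145649985), stood at 59.8, 59.5 and 64.9 against 25.8, 24.97 and 33.4 CPM (1.13 ± 0.22), with 19.3 to 40.1 CPM on chow. Ephx1, microsomal epoxide hydrolase (identifier 13849, chromosome 1, 180989556 to 181017569), had 33.1, 33.5 and 36.5 against 20.2, 20.3 and 26.4 CPM, and 17.2 to 18.9 CPM on chow. Trip6, a LIM-domain protein of focal adhesions (identifier 22051, chromosome 5, 137309898 to 137314480), had 26.5, 22.8 and 25.9 against 17.4, 17.6 and 17.1 CPM. Gpr176, an orphan receptor, stood at 1.88, 1.17 and 2.03 against 0.584, 0.618 and 0.494 CPM, Ccdc3, a secreted protein of fat and vessel cells, at 126, 92.6 and 146 against 57.7, 61.3 and 79.6 CPM, and Anxa4, a calcium-dependent membrane-binding protein, at 35.4, 24.1 and 35.4 against 17.9, 20.4 and 19.1 CPM. The DESeq2 adjusted p of the 12 genes lay between 0.000158 (H2-Ab1 and Cd74) and 0.00474 (Gpr176), and edgeR without obesity-prone replicate 2 gave adjusted p-values from 0.0232 (Anxa4) to 0.0423 (Cyr61). Without obesity-prone replicate 3 the edgeR adjusted p was 0.563 for each of the 12.

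Among protein-coding genes with lower values in obesity-prone libraries and no overlap, the lowest p-value belonged to Pde7b. This phosphodiesterase breaks down cyclic AMP (identifier 29863, chromosome 10, 20397052 to 20725078). It stood at 83.8, 145 and 93.4 CPM in obesity-prone and 358, 290.3 and 233 CPM in obesity-resistant libraries, a log2 fold change of -1.45 ± 0.25 (SE, DESeq2 adjusted p = 0.000119), with 200.5 to 331 CPM on chow. All 3 obesity-prone libraries lay below every chow library as well. Bdh1, the mitochondrial enzyme that interconverts the ketone bodies acetoacetate and beta-hydroxybutyrate (identifier 71911, chromosome 16, 31422297 to 31458901), had 0.181, 0.218 and 0.342 against 1.84, 0.698 and 1.48 CPM, a log2 fold change of -2.42 ± 0.45. Chow libraries held 0.0839 to 0.203 CPM of Bdh1, so the obesity-resistant libraries stood above both other groups. Cldn1, a claudin that seals junctions between epithelial cells (identifier 12737, chromosome 16, 26356645 to 26371839), had 1.88, 2.23 and 0.684 against 7.54, 6.26 and 4.17 CPM (-1.90 ± 0.40), below the 12.05 to 23.2 CPM of the chow libraries in both diet groups. Rbks, ribokinase, had 6.73, 7.34 and 7.03 against 11.2, 10.6 and 10.1 CPM, and Mterf2, a mitochondrial transcription termination factor, 5.596, 6.12 and 4.395 against 8.84, 10.2 and 10.3 CPM. Slc24a2, a sodium, potassium and calcium exchanger, differed least of the 12, at 23.4, 21.05 and 21.4 against 29.1, 28.7 and 27.1 CPM (-0.37 ± 0.078). Kctd8, an auxiliary subunit of GABA-B receptors, had 0.438, 0.408 and 0.2895 against 1.31, 0.967 and 0.877 CPM. The actin regulator Carmil1 and the genes Ankrd10, Krba1, Gm12258 and Gm16867 had log2 fold changes of -0.54, -0.62, -0.64, -0.69 and -0.86. That the groups did not overlap in the 12 genes was a condition of their choice. Without obesity-prone replicate 3 the edgeR adjusted p was 0.563 for each of the 12. Without obesity-prone replicate 2 it ranged from 0.0256 (Pde7b) to 0.0581 (Slc24a2), with Krba1 (0.0537) and Kctd8 (0.0518) also above 0.05.

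**Figure D1:**
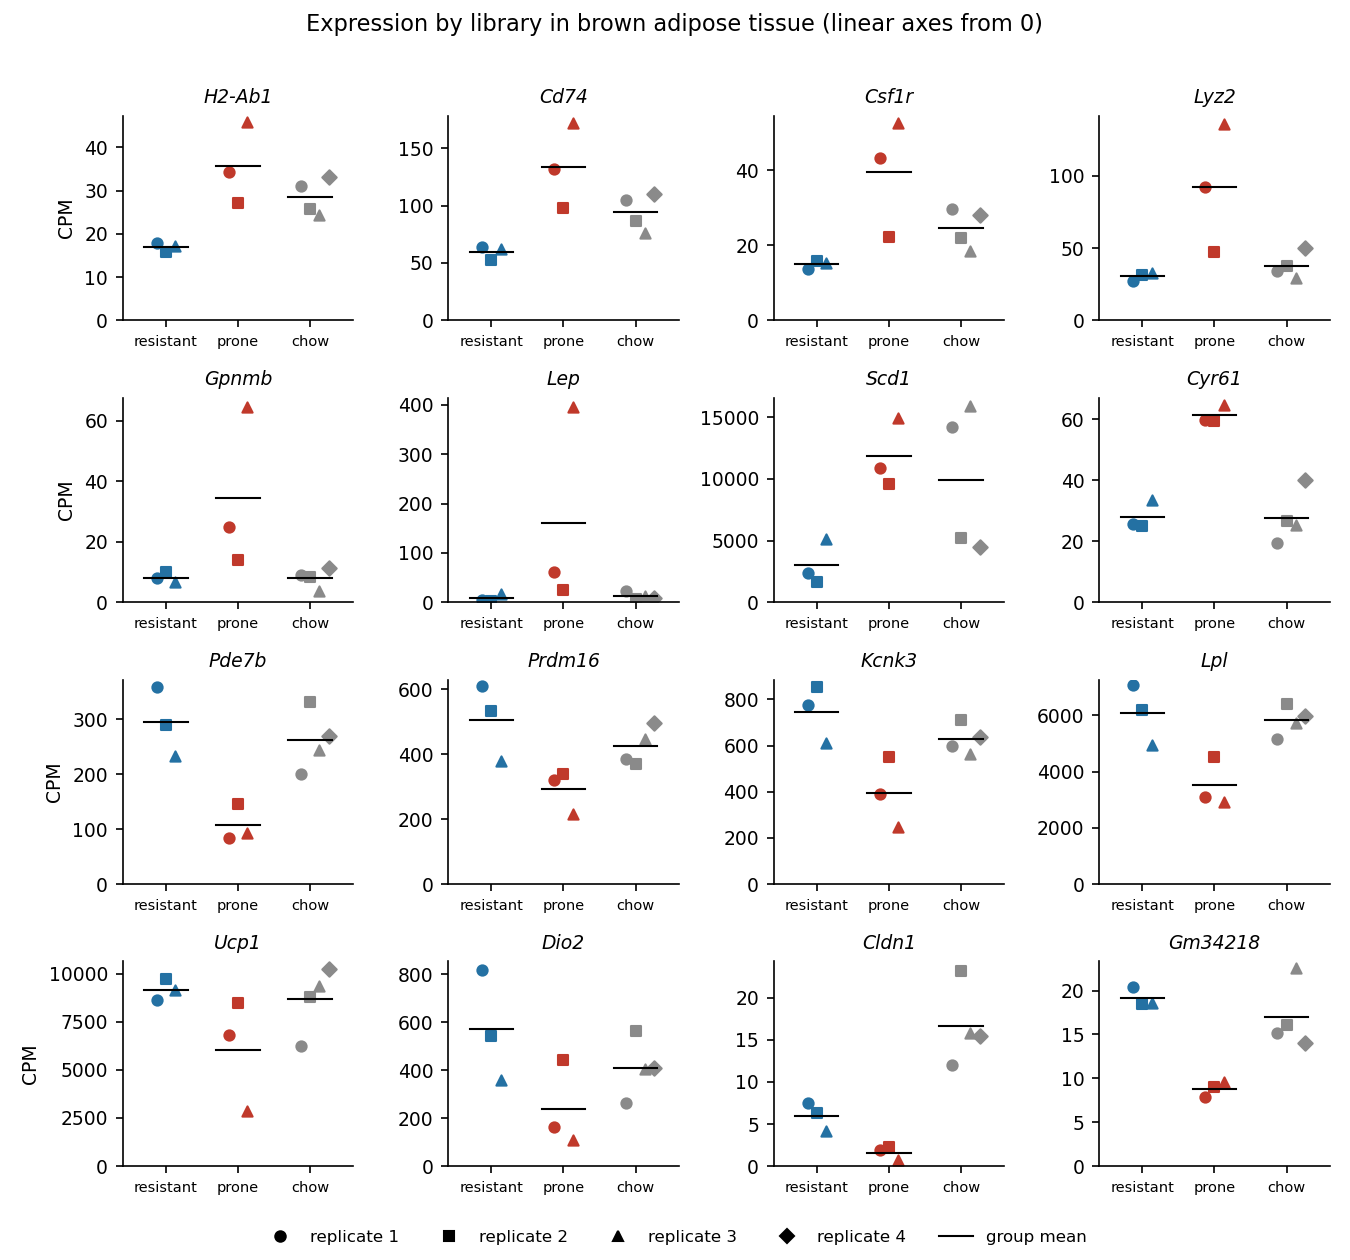
Expression of 16 genes in CPM (linear axes from 0) in each library, by group (x axis); symbols mark the replicate and bars the group mean. Obesity-prone replicate 3 (red triangle) is the highest of the obesity-prone libraries for the immune genes and for Lep, at 395 CPM, and the lowest for Ucp1, at 2882 CPM.

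Macrophages take up dying adipocytes and spilled lipid in obese fat, and a lipid-associated state of these cells is known for Trem2, Gpnmb and Itgax. Of 28 macrophage genes tested, 20 had all 3 obesity-prone libraries above all 3 obesity-resistant ones (71.4%, against 9.99% of all genes). An unadjusted edgeR p below 0.05 with a higher value was found for 25 (89.3%, against 9.78% of all genes). edgeR called 0 of the 28 at an adjusted p below 0.05, and DESeq2 called 18 higher and 1 lower. Of all genes given a DESeq2 adjusted p, 2.36% were called higher and 0.966% lower. Lyz2, lysozyme (identifier 17105, chromosome 10, 117277541 to 117282272), stood at 92.5, 47.3 and 136 against 27.5, 31.2 and 32.4 CPM (1.60 ± 0.32, DESeq2 adjusted p = 0.000829), with 29.5 to 49.8 CPM on chow. Gpnmb, a glycoprotein of lipid-laden macrophages, stood at 24.8, 13.8 and 64.6 against 7.897, 9.91 and 6.64 CPM, and Tyrobp, the signalling partner of Trem2, at 10.2, 5.14 and 15.9 against 2.56, 3.71 and 2.797 CPM. Trem2 itself, the lipid-sensing receptor, had 3.71, 0.979 and 6.05 against 0.584, 0.806 and 0.466 CPM, and its obesity-prone replicate 2 lay just above the highest obesity-resistant library. Tyrobp and Trem2 were chosen after their values were seen. The complement genes C1qa, C1qb and C1qc, which resident macrophages make, had log2 fold changes of 1.31, 1.49 and 1.29, the mannose receptor Mrc1 1.41, the protease Ctss 1.88 and the integrin Itgax 2.33. Mmp12, macrophage elastase, had the highest of the list, 2.98, but its groups overlapped, at 24.3, 2.72 and 31.9 against 1.001, 2.09 and 4.39 CPM. Adgre1, which encodes the macrophage marker F4/80, had 35.1, 27.1 and 58.5 against 26.6, 26.4 and 24.1 CPM (0.65 ± 0.24). Lpl, lipoprotein lipase, was the 1 member with lower values in obesity-prone libraries, and it is also an abundant adipocyte gene. The summed level of the list, leaving out members shared with the adipocyte list, was 642, 325 and 996 CPM in obesity-prone, 218, 283 and 232 CPM in obesity-resistant and 198 to 386 CPM in chow libraries. Obesity-prone replicate 2, at 325 CPM, was nearer to the obesity-resistant libraries than to the other obesity-prone ones. The median log2 fold change of the list was 1.45, and 1.01 without obesity-prone replicate 3 and 1.79 without replicate 2, a range that stayed above the median of all genes (-0.007) each time.

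Other immune lists had smaller shares of genes without overlap. Of 33 inflammatory cytokine and chemokine genes, 7 did not overlap upward (21.2%, against 9.99% of all genes) and none downward. Among the 7 were Il1b (1.11, 2.04 and 2.03 against 0.528, 0.483 and 0.987 CPM), Cxcl1 (1.37, 1.06 and 2.395 against 0.389, 0.752 and 0.685 CPM) and the inflammasome sensor Nlrp3 (1.57, 1.17 and 1.74 against 0.417, 0.886 and 0.658 CPM). Ccl9, a chemokine of myeloid cells, had the lowest p of the list at 28.9, 8.02 and 36.1 against 4.42, 8.996 and 6.85 CPM, with obesity-prone replicate 2 within the obesity-resistant range. Relb, a subunit of the transcription factor NF-kappa-B, had 10.99, 7.83 and 9.95 against 5.005, 7.87 and 6.06 CPM. The list's median was 0.60, and 0.33 without obesity-prone replicate 3. Of 40 interferon response genes, 5 did not overlap upward (12.5%), which is near the share of all genes, and the median was 0.36, or 0.10 without obesity-prone replicate 3. Ubd, a ubiquitin-like protein induced by interferon gamma, had 1.702, 0.381 and 7.63 against 0.139, 0.107 and 0.302 CPM (4.12 ± 0.96, and 2.50 without obesity-prone replicate 3). Irf1, an interferon-induced transcription factor, had 19.5, 21.02 and 25.98 against 18.3, 15.7 and 16.5 CPM. Of 10 neutrophil and mast cell genes tested, 3 did not overlap upward (30%, against 9.99% of all genes). S100a9, a neutrophil calcium-binding protein, had 0.97996, 1.63 and 1.79 against 0.445, 0.4297 and 0.631 CPM and Csf3r, the receptor of the neutrophil growth factor G-CSF, 4.72, 6.15 and 9.63 against 2.67, 3.303 and 3.702 CPM. T, NK and B cell markers were sparse. Of 23 found, 11 passed the filter. Of these, 1 did not overlap upward (Cd4) and 1 downward (9.09% each, near the 9.99% and 9.75% of all genes). The downward one was Jchain, the joining chain of secreted antibodies, at 0.0516, 0.163 and 0.07896 against 0.584, 0.5102 and 0.576 CPM. Cd247, the T cell receptor zeta chain, had 1.96, 1.14 and 2.68 against 1.14, 1.02 and 1.398 CPM.

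Collagens and the enzymes that crosslink them form the fibrous matrix of fat, which thickens in obesity. Of 46 matrix genes tested, 23 had all 3 obesity-prone libraries above all 3 obesity-resistant ones (50%, against 9.99% of all genes). None had the reverse, and 45 had a log2 fold change above 0. edgeR called 0 of the 46 at an adjusted p below 0.05, and DESeq2 called 15 higher. Over all genes given an adjusted p, DESeq2 called 2.36% higher. Col1a1, the main chain of type I collagen (identifier 12842, chromosome 11, 94936224 to 94953042, chosen after its values were seen), stood at 332, 199 and 597 against 120.3, 160.4 and 104 CPM (1.55 ± 0.39, DESeq2 adjusted p = 0.00743). Lox, which crosslinks collagen, had 55.8, 44.3 and 117 against 31.2, 18.8 and 25.4 CPM (1.53 ± 0.33), with 20.01 to 28.1 CPM on chow. Bgn, the proteoglycan biglycan (identifier 12111, chromosome X, 73483601 to 73495936), had 132, 105 and 204 against 66.8, 71.2 and 77.02 CPM, with 51.4 to 81.5 CPM on chow. Col18a1, a basement membrane collagen chosen after its values were seen, had 57.5, 36.1 and 157 against 22.8, 26.2 and 26.3 CPM, a fold change of 1.74 ± 0.44 that was 0.90 without obesity-prone replicate 3. In each of these 4 genes obesity-prone replicate 2 was the lowest of its group yet above every obesity-resistant library. Col6a1, a chain of the type VI collagen abundant around adipocytes, had a log2 fold change of 1.01, while Postn (periostin) stood at -0.07 and Dcn (decorin) at 0.17. The median was 0.80, and 0.49 without obesity-prone replicate 3 and 0.96 without replicate 2. Of 19 progenitor and fibroblast genes tested, 7 did not overlap upward (36.8%, against 9.99% of all genes). Dpt, dermatopontin, had 55.9, 41.7 and 274 against 25.1, 25.97 and 36.5 CPM, with a log2 fold change of 2.09 and 0.74 without obesity-prone replicate 3. Cd34, a progenitor and vessel marker, had 48.9, 30.3 and 54.1 against 28.9, 28.7 and 28.7 CPM, while Dlk1 and Pi16, which mark early progenitors, had log2 fold changes of -1.15 and -0.71 with overlapping groups.

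Most genes of the cell cycle also had higher values in obesity-prone libraries, with 25 of 27 log2 fold changes above 0. Of 27 tested, 10 did not overlap upward (37%, against 9.99% of all genes) and 1 downward (Tyms). The median was 0.86, and 0.64 and 1.21 without obesity-prone replicates 3 and 2. Mki67, the proliferation marker Ki-67 (chosen after its values were seen), had 13.7, 4.62 and 14.4 against 2.61, 3.57 and 2.44 CPM. Kif11, a motor of the mitotic spindle, had 1.62, 0.843 and 1.87 against 0.5005, 0.564 and 0.494 CPM. The replication helicase subunit Mcm7 differed by less, at 12.97, 12.2 and 13.9 against 10.9, 10.1 and 10.2 CPM (0.32 ± 0.094), and the cell cycle inhibitor Cdkn1a had a log2 fold change of -0.31. The list's level in obesity-prone replicates 1 to 3, the mean over members of log2 CPM minus the gene's mean over the 10 libraries, was 0.81, -0.07 and 0.89, against -0.31, -0.10 and -0.34 in obesity-resistant libraries. It was thus high in the same 2 obesity-prone libraries as the macrophage level, which was 1.04, 0.02 and 1.61 against -0.68, -0.14 and -0.41. The summed level of the cell cycle list, in which abundant members weigh most, did not separate the groups. It was 326, 407 and 403 CPM in obesity-prone and 349, 341 and 308 CPM in obesity-resistant libraries.

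**Figure D2:**
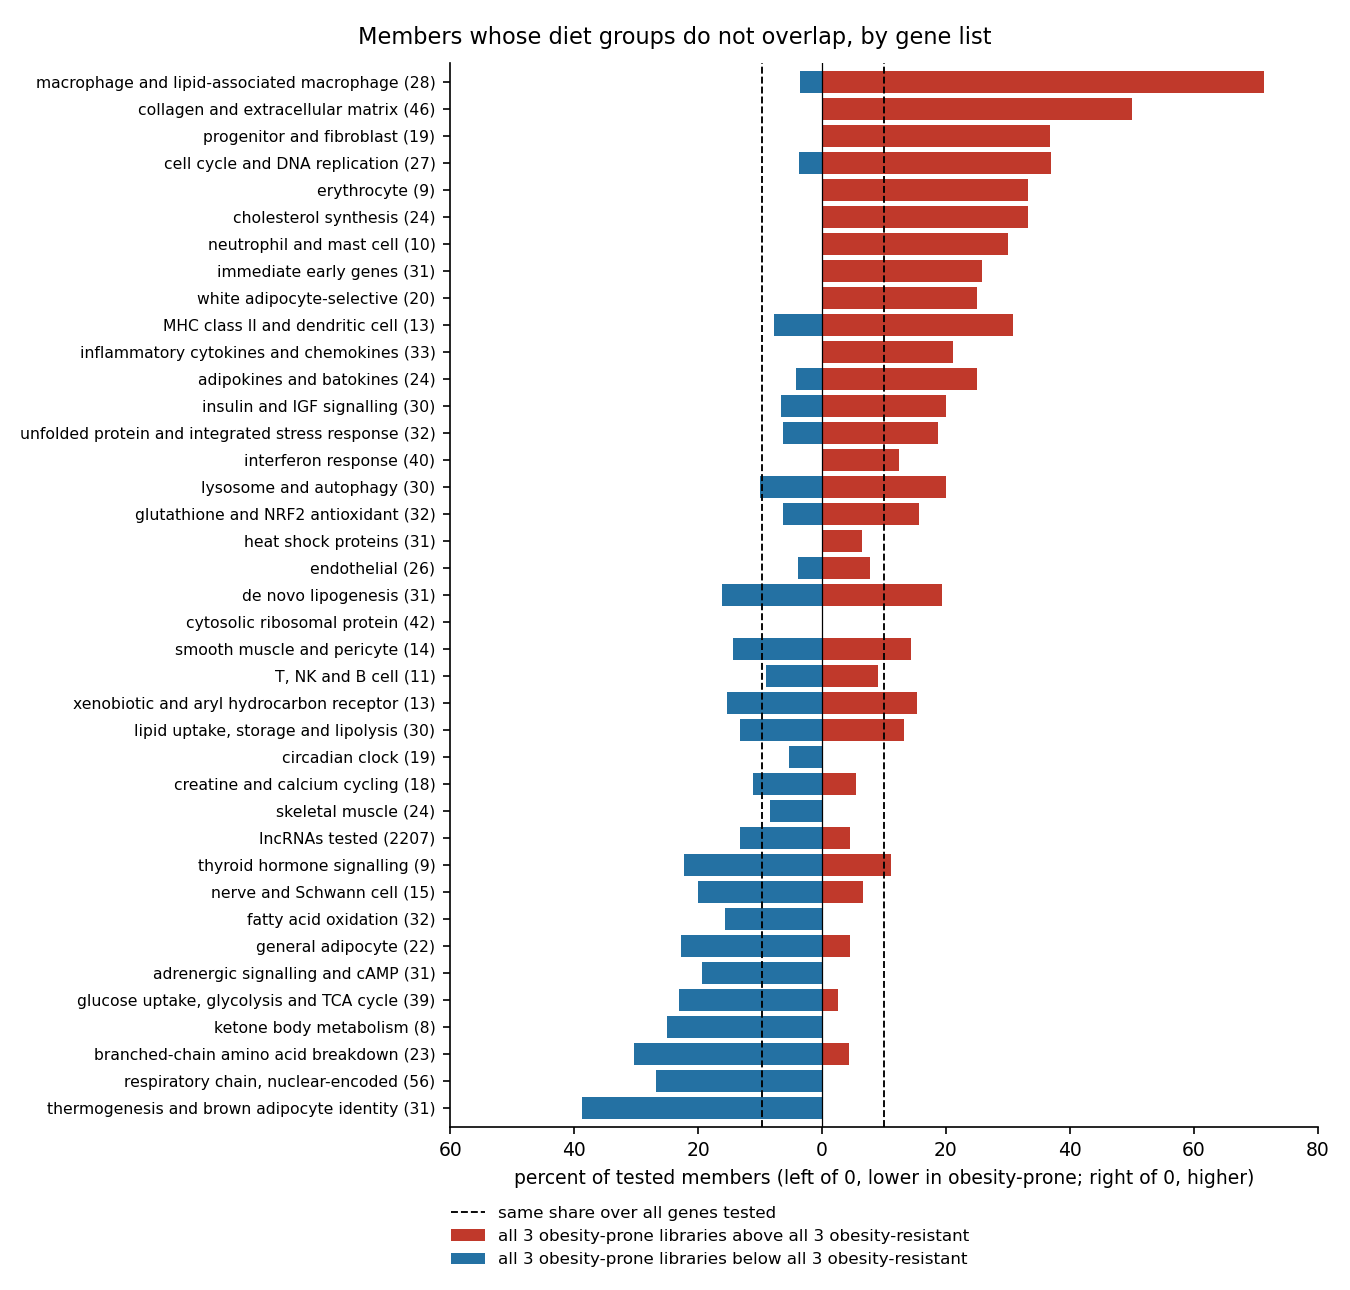
Percent of the tested members of each gene list (number in parentheses) for which all 3 obesity-prone libraries lay above (red, right of 0) or below (blue, left of 0) all 3 obesity-resistant libraries; dashed lines give the shares over all genes tested, 9.99% and 9.75%. Macrophage genes reach 71.4% to the right and thermogenesis genes 38.7% to the left; the mesothelial and lymph node lists, with 5 and 7 tested members, are not drawn.

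Of 31 genes of thermogenesis and brown adipocyte identity, 12 had all 3 obesity-prone libraries below all 3 obesity-resistant ones (38.7%, against 9.75% of all genes) and none the reverse. The median was -0.47, and -0.22 without obesity-prone replicate 3 and -0.70 without replicate 2. edgeR called 0 of the 31 at an adjusted p below 0.05 and DESeq2 called 3 lower. The list's level was -0.11, 0.161 and -0.76 in obesity-prone, 0.39, 0.25 and 0.155 in obesity-resistant and -0.22 to 0.08 in chow libraries. All obesity-resistant libraries thus lay above the chow range. Obesity-prone replicate 1 lay within that range, replicate 2 above it and replicate 3 below it. Prdm16, the transcription factor that commits cells to a brown fate (identifier 70673, chromosome 4, 154316122 to 154637360), stood at 320.4, 339.8 and 217 against 609.8, 531 and 378 CPM (-0.79 ± 0.22, DESeq2 adjusted p = 0.0248), with 369.8 to 497 CPM on chow. Kcnk3, a potassium channel of brown adipocytes (identifier 16527, chromosome 5, 30588170 to 30625270), had 389, 551 and 247 against 776, 855 and 609 CPM (-0.92 ± 0.25), with 563 to 712 CPM on chow. Ffar4, a receptor for long-chain fatty acids (chosen after its values were seen), had 27.95, 28.7 and 17.7 against 55.5, 36.7 and 47.1 CPM (-0.91 ± 0.25). Chow libraries held 13.6 to 25.9 CPM of Ffar4, below every obesity-resistant library. In these 3 genes all obesity-prone libraries lay below the obesity-resistant ones, replicate 3 the lowest. Ucp1, whose values are given above, did not overlap either, with a log2 fold change of -0.60 ± 0.35 and -0.26 without obesity-prone replicate 3. Ppargc1a, the coactivator of mitochondrial biogenesis, had 159, 237 and 115 against 263, 368 and 235 CPM, with overlap between obesity-prone replicate 2 and obesity-resistant replicate 3. Cidea, a lipid droplet protein of brown fat, had 848, 862 and 341 against 709, 817 and 804 CPM, so that only obesity-prone replicate 3 lay below the obesity-resistant range. Elovl3, a fatty acid elongase induced by cold, had 38.6, 76.7 and 21.1 against 81.8, 64.2 and 72.7 CPM. Its chow libraries, at 26.6 to 62.7 CPM, also lay below every obesity-resistant library. The developmental factors Tbx15 and Lhx8 had log2 fold changes of 1.01 and 0.62, and -0.16 and -0.36 without obesity-prone replicate 3.

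Dio2 had the lowest fold change of this list, -1.27 ± 0.49, at 164, 440.4 and 111 CPM in obesity-prone, 817, 542 and 359 in obesity-resistant and 265 to 562 in chow libraries. Obesity-prone replicate 2 lay within the obesity-resistant range and the other obesity-prone libraries lay below it, and without replicate 2 the log2 fold change was -2.06 (edgeR adjusted p = 0.0343). Without replicate 3 it was -0.92 (edgeR adjusted p = 0.672). Dio2 is a known target of cyclic AMP, and its promoter is printed because it holds the response element (250 bases before the start, chr12:90739039-90739288, minus strand, GRCm38.p6, RefSeq). Capitals mark TGACGTCA, 95 to 88 bases upstream of the start.
Dio2: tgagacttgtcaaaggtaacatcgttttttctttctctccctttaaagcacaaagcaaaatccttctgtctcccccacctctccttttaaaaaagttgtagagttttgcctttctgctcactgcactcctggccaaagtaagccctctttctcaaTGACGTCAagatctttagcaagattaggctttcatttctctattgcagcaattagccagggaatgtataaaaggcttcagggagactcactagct
Genes of adrenergic signalling and cyclic AMP, the pathway upstream of this element, had a median of -0.23 (-0.14 without obesity-prone replicate 3). Of these 31 genes, 6 did not overlap downward (19.4%, against 9.75% of all genes) and none upward. Among the enzymes, Adcy3, an adenylyl cyclase that makes cyclic AMP, had 334, 546 and 167 against 950.2, 743 and 657 CPM (-1.17 ± 0.39), and Pde3a, a phosphodiesterase that removes it (chosen after its values were seen), 51.2, 89.9 and 39.95 against 95.4, 101 and 105 CPM (-0.74 ± 0.28). The adrenergic receptors Adrb1 and Adrb3 had log2 fold changes of 0.30 and 0.29, with overlapping groups. Of the pathway's targets, Nr4a1, an early-response nuclear receptor (chosen after its values were seen), had 191, 304 and 145 against 444, 446 and 255 CPM, and Crem, a repressor of the same response, 15.01, 20.2 and 14.4 against 22.8, 19.9 and 20.5 CPM. For Adcy3, Pde3a, Nr4a1 and Crem, obesity-prone replicate 2 was the highest of its group, as it was for Pde7b. In the thyroid hormone list, Ncoa1, a coactivator of nuclear receptors, had 132, 156 and 114 against 214, 202 and 158 CPM.

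**Figure D3:**
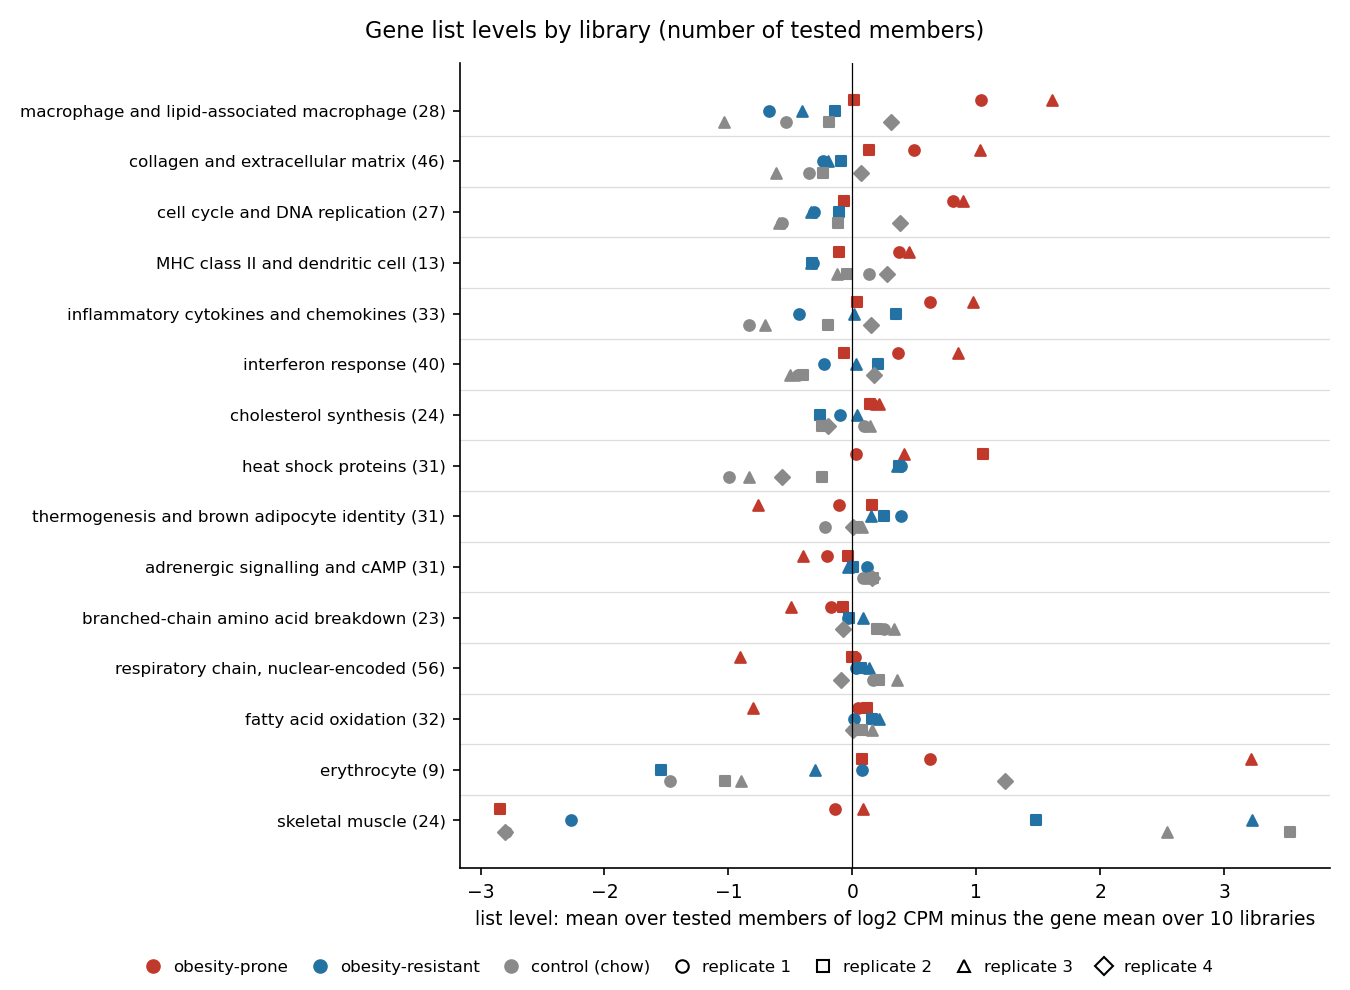
Level of 15 gene lists in each library (x axis, mean over tested members of log2 CPM minus the gene's mean over the 10 libraries); colours mark the groups and symbols the replicates. The respiratory chain and fatty acid oxidation levels of obesity-prone replicate 3 lie at -0.90 and -0.80, apart from the other libraries, while thermogenesis levels of obesity-prone replicates 1 and 3 lie below all obesity-resistant libraries.

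Mitochondrial lists had lower values in obesity-prone libraries, mostly in 1 of them. Of 56 nuclear-encoded respiratory chain genes, 55 had a log2 fold change below 0, and the median was -0.32. The groups did not overlap downward in 15 (26.8%, against 9.75% of all genes). None of the 56 had an unadjusted p below 0.05. The list's level was 0.03, -0.00 and -0.90 in obesity-prone, 0.03, 0.07 and 0.13 in obesity-resistant and -0.09 to 0.36 in chow libraries, and without obesity-prone replicate 3 the median was -0.052. Ndufc2, a subunit of complex I with the lowest p of the list, had 83.9, 80.1 and 49.8 against 89.03, 104 and 91.97 CPM, and Atp5g1, a ring subunit of ATP synthase, 6.29, 3.51 and 7.76 against 3.003, 3.89 and 4.88 CPM. Fatty acid oxidation showed the same dependence on 1 library. Of 32 genes 5 did not overlap downward (15.6%, against 9.75% of all genes). The median went from -0.22 to 0.027 without obesity-prone replicate 3. The acyl-CoA thioesterases Acot1 and Acot3 had the lowest p of this list, Acot1 with 4.26, 14.7 and 2.32 against 17.9, 16.2 and 17.9 CPM and Acot3 with 0.799, 0.925 and 0.211 against 1.08, 1.15 and 1.89 CPM. Their coding sequences are similar, so the division of reads between them is uncertain. The median of 39 genes of glucose uptake, glycolysis and the TCA cycle was -0.27, or -0.035 without obesity-prone replicate 3. Of these, 9 did not overlap downward (23.1%, against 9.75% of all genes) and 1 upward. Slc2a4, the insulin-responsive glucose transporter GLUT4, had 172, 243 and 105 against 359, 315 and 262 CPM (-0.85 ± 0.28), and Pfkfb1, which sets the level of a glycolytic activator, 13.98, 19.5 and 10.98 against 25.9, 26.6 and 27.97 CPM. Slc2a5, a fructose transporter, was listed at 0 in all diet libraries except obesity-resistant replicate 3 (0.137 CPM), against 0.521 to 5.31 CPM on chow, and no fold is given.

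Branched-chain amino acids are a known fuel of brown fat. Of 23 genes of their breakdown, 7 did not overlap downward (30.4%, against 9.75% of all genes) and 1 upward. The median was -0.30, or -0.13 without obesity-prone replicate 3. Bcat2, the mitochondrial aminotransferase of the first step, stood at 39.5, 51.3 and 34.3 against 62.6, 64.05 and 64.2 CPM (-0.61 ± 0.18), and chow libraries lay above both groups at 77.6 to 122 CPM. Ppm1k, the phosphatase that activates the next enzyme, had 22.4, 23.3 and 14.1 against 33.98, 35.2 and 44.8 CPM (-0.93 ± 0.26). Bcat1, the cytosolic aminotransferase, was the exception, with 4.64, 2.86 and 18.4 against 1.42, 2.26 and 1.62 CPM and 0.656 to 1.93 CPM on chow. The fold change was 2.29 ± 0.64 on the log2 scale, or 1.09 when obesity-prone replicate 3 was left out. In the ketone body list, 2 of 8 genes did not overlap downward (25%, against 9.75% of all genes). They were Bdh1 (above) and Acot12, a cytosolic acetyl-CoA hydrolase with 1.81, 1.58 and 1.11 against 2.72, 3.17 and 3.21 CPM. Ckb, the creatine kinase that takes part in a creatine cycle of brown fat, had 38.6, 46.5 and 21.2 against 91.8, 102 and 74.2 CPM (-1.33 ± 0.37, DESeq2 adjusted p = 0.0204), with 34.2 to 89.9 CPM on chow. Atp2a3, a calcium pump of the endoplasmic reticulum, had 38.3, 25.7 and 57.8 against 20.8, 22.9 and 27.5 CPM with overlapping groups.

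Lipid synthesis genes lay in both directions. Of 31 lipogenesis genes, 6 did not overlap upward (19.4%) and 5 downward (16.1%), against 9.99% and 9.75% of all genes. The median was -0.032, or 0.025 without obesity-prone replicate 3. Scd1, the stearoyl-CoA desaturase that makes monounsaturated fatty acids (identifier 20249, chromosome 19, 44394450 to 44407709), stood at 10899, 9628 and 14939.7 CPM in obesity-prone and 2344, 1679 and 5092 CPM in obesity-resistant libraries (1.96 ± 0.56, DESeq2 adjusted p = 0.0453). Chow libraries ranged over 4465 to 15885 CPM, across both diet groups. Scd2 had 40.1, 31.8 and 104 against 18.5, 20.01 and 21.9 CPM; the Scd genes are close relatives, so reads may be divided between them uncertainly. Fasn, fatty acid synthase, had 1192, 1665 and 1246 against 997, 522 and 963 CPM without overlap, with 1309 to 9819 CPM on chow, and Acly, which supplies its acetyl-CoA, 160.4, 155 and 131 against 166, 139 and 156 CPM, with overlap. Dgat1, which completes triglyceride synthesis, had lower values in obesity-prone libraries, at 133, 141 and 109.9 against 209.7, 199 and 165 CPM (-0.58 ± 0.13, DESeq2 adjusted p = 0.00605). Of 24 cholesterol synthesis and uptake genes, 8 did not overlap upward (33.3%, against 9.99% of all genes) and none downward. The median was 0.28, 0.30 and 0.25 with all libraries, without obesity-prone replicate 3 and without replicate 2. Sc5d, a late enzyme of the pathway, had 55.3, 40.9 and 86.8 against 26.7, 23.1 and 34.4 CPM, and Cyp51, lanosterol demethylase, 17.7, 20.8 and 17.4 against 12.9, 9.45 and 14.1 CPM. Hmgcs1, the synthase of an early step (chosen after its values were seen), had 501, 444 and 405 against 282, 353 and 387 CPM. Lpl, which frees fatty acids from lipoproteins in vessels (identifier 16956, chromosome 8, 68880555 to 68906932), had 3103, 4524 and 2936 against 7065, 6202 and 4956 CPM (-0.79 ± 0.22, DESeq2 adjusted p = 0.00931), and the obesity-prone libraries also lay below the 5169 to 6400.5 CPM of chow. Fabp5, a fatty acid-binding protein, had 28.7, 23.6 and 32.7 against 19.5, 19.6 and 17.1 CPM.

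Several hormones and markers that distinguish white from brown fat had higher values in all 3 obesity-prone libraries. Lep, the hormone leptin (identifier 16846, chromosome 6, 29060221 to 29073876), stood at 61.2, 23.8 and 395 against 4.98, 2.12 and 17.2 CPM, with 6.31 to 22.2 CPM on chow. The groups did not overlap, and the log2 fold change was 4.30 ± 1.12, or 2.39 without obesity-prone replicate 3. Mest, an imprinted gene known for its link to fat cell size (identifier 17294, chromosome 6, 30733506 to 30748466), had 29.4, 11.8 and 161 against 7.79, 7.17 and 8.66 CPM (3.09 ± 0.77, and 1.39 without obesity-prone replicate 3). Of 20 white adipocyte-selective genes tested, 5 did not overlap upward (25%, against 9.99% of all genes) and none downward. The median was 0.51, or 0.29 without obesity-prone replicate 3. The summed level of this list was 2796, 2089 and 4179 CPM in obesity-prone, 1827, 1754 and 2145 in obesity-resistant and 1320.5 to 1704 in chow libraries. The level of this list, set per gene as for the cell cycle, was 0.11, -0.20 and 1.47 in obesity-prone and -0.66, -0.65 and 0.42 in obesity-resistant libraries, so that obesity-resistant replicate 3 lay above obesity-prone replicates 1 and 2. General adipocyte genes had a median of -0.065, or -0.11 without obesity-prone replicate 2. Of 22 tested, 5 did not overlap downward (22.7%, against 9.75% of all genes) and 1 upward. Their summed level was 20517, 23718 and 19617 CPM in obesity-prone, 26475, 24719 and 24440 in obesity-resistant and 25704 to 35514 in chow libraries. The level set per gene was -0.355, -0.178 and -0.238 against -0.093, -0.141 and -0.09, so both measures were lower in all obesity-prone libraries. Adipoq, adiponectin, had 282, 311 and 486 against 304, 315 and 343 CPM with overlap, while Cfd, the adipocyte protease adipsin (identifier 11537, chromosome 10, 79890853 to 79892655), had 119, 159.8 and 139.6 against 277, 310.2 and 292 CPM (-1.07 ± 0.32) and 421 to 1239.9 CPM on chow. Of 24 adipokine and batokine genes, 6 did not overlap upward (25%, against 9.99% of all genes) and 1 downward (Cfd). Pltp, the phospholipid transfer protein, had 86.5, 63.3 and 138 against 39.5, 46.8 and 55.6 CPM. Fgf21, a hormone of liver and activated brown fat (identifier 56636, chromosome 7, 45613890 to 45615490), had 1.83, 3.07 and 3.03 against 1.06, 0.9399 and 1.78 CPM, without overlap (1.07 ± 1.23). Its chow libraries ranged over 0.171 to 8.595 CPM, with control replicate 4 above all diet libraries. Rspo4, which strengthens Wnt signals from outside the cell (identifier 228770, chromosome 2, 151842647 to 151874668), had 1.96, 1.17 and 1.58 against 0.334, 0.269 and 0.576 CPM (1.99 ± 0.54, DESeq2 adjusted p = 0.00799), and at most 0.112 CPM in the chow libraries.

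Stress, hormone and signalling lists follow. Heat shock genes had a median of 0.17 that became -0.27 without obesity-prone replicate 2, whose level on this list was 1.06 against 0.026 and 0.42 for the other obesity-prone and 0.40, 0.38 and 0.36 for the obesity-resistant libraries. Hspa1a, an inducible chaperone whose near-identical copy Hspa1b makes its count uncertain, had 54.96, 471 and 101 against 162, 59.9 and 60.9 CPM, and Hspa1b 71.8, 793 and 145 against 242, 109 and 92.1 CPM. Hspa2 and the small heat shock protein Cryab had 5.88, 6.25 and 9.16 against 3.98, 3.89 and 5.54 CPM and 23.4, 23.8 and 48.98 against 9.56, 14.7 and 21.6 CPM. Of 31 immediate early genes, which respond within minutes to signals and to handling of tissue, 8 did not overlap upward (25.8%, against 9.99% of all genes). The median was 0.58, or 0.33 without obesity-prone replicate 3. Jund had 124, 82.2 and 108 against 63.4, 66.2 and 81.2 CPM, while Nr4a1, also on this list, had a log2 fold change of -0.84. Of 32 unfolded protein and stress response genes, 6 did not overlap upward (18.8%, against 9.99% of all genes) and 2 downward. Pdia4, a chaperone of the endoplasmic reticulum, had 44.98, 33.9 and 62.7 against 28.9, 36.8 and 33.2 CPM. Psat1, a serine synthesis enzyme, had 15.7, 9.63 and 35.6 against 7.54, 9.64 and 10.9 CPM. Of 32 glutathione and antioxidant genes, 5 did not overlap upward (15.6%, against 9.99% of all genes) and 2 downward. Gpx1, glutathione peroxidase, had 179.98, 132 and 216 against 99.6, 91.5 and 117 CPM (0.78 ± 0.18, DESeq2 adjusted p = 0.00799), and Gstt1, a glutathione transferase, 8.15, 6.12 and 12.8 against 5.39, 5.16 and 6.09 CPM. Of 13 xenobiotic response genes 2 did not overlap upward and 2 downward (15.4% each, against 9.99% and 9.75% of all genes). Cyp1a1, a cytochrome P450 under the aryl hydrocarbon receptor, had 0.903, 2.04 and 0.5001 against 3.17, 4.24 and 2.28 CPM (-1.50 ± 0.44) and 21.1 to 38.1 CPM on chow, while Cyp1b1 had 17.3, 15.3 and 24.5 against 11.98, 13.4 and 9.93 CPM. The median of the lysosome and autophagy list was 0.089. Of its 30 tested members, 6 did not overlap upward (20%) and 3 downward (10%), against 9.99% and 9.75% of all genes. Sqstm1, the autophagy receptor p62, had 382, 284 and 376 against 156, 230.4 and 214 CPM, and Ctsk, a collagen-degrading protease, 4.13, 2.83 and 11.3 against 2.56, 2.28 and 2.39 CPM. Insulin and IGF signalling genes had a median of -0.012, and of 30 tested 6 did not overlap upward (20%) and 2 downward (6.67%). Igfbp7 had 61.2, 43.9 and 76.04 against 42.8, 38.2 and 38.8 CPM, and the transcription factor Foxo3 42.3, 46.4 and 58.1 against 36.5, 39.4 and 42.1 CPM. Circadian clock genes had a median of 0.11 (0.072 and 0.24 without obesity-prone replicates 3 and 2), with Npas2 at 1.86, 3.83 and 2.18 against 8.51, 3.97 and 4.99 CPM and Nr1d2 at 119, 88.6 and 117 against 79.8, 81.7 and 94.5 CPM. Ryr2, the calcium release channel, had 92.2, 122 and 94.6 against 85.3, 82.8 and 90.02 CPM and 21.8 to 33.4 on chow, and Gpc1, a heparan sulfate proteoglycan, 42.01, 43.4 and 38.4 against 37.6, 33.2 and 52.7 CPM and 10.8 to 14.4 on chow. Both diet groups thus stood above chow for these genes, and they differed from each other by a log2 fold change of 0.26 ± 0.15 and 0.00. Cytosolic ribosomal protein genes had a median of -0.011, with 0 of 42 not overlapping in either direction. Rpl19, among the members of lowest p, had 133, 144 and 105 against 143, 151 and 137 CPM.

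Markers of other tissues and cells varied within the groups. All 24 tested skeletal muscle genes had lower values in obesity-prone libraries by the fit, with a median of -3.02, and the groups overlapped in all but 2 of them. Their level was -0.14, -2.85 and 0.08 in obesity-prone, -2.27, 1.48 and 3.23 in obesity-resistant and -2.80 to 3.53 in chow libraries, and the summed level 238, 136 and 290.04, 164, 839 and 2789 and 129.8 to 3276 CPM. Actn2, a muscle alpha-actinin, had 2.14, 1.904 and 1.55 against 3.28, 4.404 and 6.005 CPM, and Des, desmin, which smooth muscle also makes, 69.4, 83.7 and 39.1 against 93.6, 112 and 115 CPM. With the muscle level as a covariate edgeR again called 0 genes. All 9 tested erythrocyte genes had higher values by the fit, with a median of 2.48, or 0.96 without obesity-prone replicate 3. Their summed level was 4761, 2420.3 and 22233 CPM in obesity-prone, 2550.00, 709.5 and 1740.2 in obesity-resistant and 823 to 6165 in chow libraries. Hba-a2, an alpha-globin with a near-identical copy, had 1320.1, 638 and 6113 against 642, 188 and 426 CPM. Obesity-prone replicate 3 was thus the highest library for erythrocyte, macrophage, matrix and white adipocyte genes and the lowest for mitochondrial ones; the part of any of these in the others was not tested. Endothelial genes had a median of 0.17, or 0.099 without obesity-prone replicate 3, with 2 of 26 not overlapping upward (7.69%) and 1 downward (Fabp4), the first being Vwf (61.5, 45.96 and 59.1 against 42.3, 27.8 and 40.1 CPM) and Ramp2 (29.9, 24.9 and 45.9 against 23.9, 19.1 and 19.99 CPM). Smooth muscle and pericyte genes had a median of 0.28, or 0.096 without obesity-prone replicate 3. In each direction 2 of 14 did not overlap (14.3%, against 9.99% upward and 9.75% downward of all genes). Acta2, smooth muscle actin, had 42.1, 42.3 and 109.5 against 25.5, 32.1 and 37.8 CPM, and Mcam, a pericyte and vessel adhesion molecule, 59.7, 30.3 and 138 against 26.6, 29.6 and 33.8 CPM. Of 15 nerve and Schwann cell genes tested, 3 did not overlap downward (20%, against 9.75% of all genes) and 1 upward. Ngfr, the low-affinity nerve growth factor receptor, had 0.903, 1.28 and 1.08 against 1.501, 2.09 and 1.70003 CPM, and Ncam1 3.56, 4.62 and 3.74 against 6.09, 5.21 and 5.703 CPM. Mesothelial and epithelial markers were low, 5 of 19 found in the table passing the filter, and their summed level was 11.3, 9.84 and 12.6 CPM against 15.7, 14.2 and 12.9 CPM. Of the 5, 3 did not overlap downward (60%) and 2 did not overlap upward (40%), against 9.75% and 9.99% of all genes. Those downward include Cldn1, given above, and Lrrn4, at 0.48998, 0.925 and 0.605 against 2.14, 1.58 and 1.97 CPM. Lymph node and thymus markers did not separate the groups, 0 of 7 in either direction, with Lyve1 at 11.2, 6.01 and 8.896 against 1.92, 6.53 and 6.75 CPM and Cd1d1 at 33.96, 34.05 and 45.1 against 26.1, 31.7 and 36.03 CPM.

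Long noncoding RNAs (lncRNAs), transcripts that encode no protein and whose roles are mostly unknown, are named in the series title beside mRNAs. Of 2207 lncRNAs tested, edgeR called 0 at an adjusted p below 0.05. At an unadjusted edgeR p below 0.05 there were 292, 76 higher (3.44%, against 9.78% of all genes) and 216 lower (9.79%, against 5.62%). DESeq2 called 45 lncRNAs, 9 higher and 36 lower. The 2207 include lncRNAs to which DESeq2 gave no adjusted p, such as Lncenc1 below, so no share is given. Over all genes given an adjusted p it called 401 higher (2.36%) and 164 lower (0.966%). The groups did not overlap in 101 upward (4.58%) and 291 downward (13.2%), whereas among 14243 protein-coding genes these were 1718 (12.1%) and 1286 (9.03%). The median log2 fold change of lncRNAs was -0.09, against 0.013 for protein-coding genes; the difference between the classes was not tested. The 2756 tested genes without a name, which are not members, had 116 upward (4.21%) and 275 downward (9.98%). Gm34218 (identifier 102637398, chromosome 4, 98018088 to 98023101) had the lowest p of all genes named here. It stood at 7.84, 8.97 and 9.55 CPM in obesity-prone, 20.4, 18.5 and 18.5 in obesity-resistant and 14.03 to 22.6 in chow libraries, a log2 fold change of -1.12 ± 0.17 (DESeq2 adjusted p = 4.05e-05), which was -1.19 without obesity-prone replicate 3. Gm46489 (identifier 108168205, chromosome 14, 122749014 to 122753081) had 1.73, 2.31 and 1.58 against 4.37, 3.598 and 4.497 CPM (-1.15 ± 0.18), and Gm10603 (identifier 100038497, chromosome 7, 100459418 to 100469380) 10.6, 10.4 and 10.2 against 15.2, 19.8 and 17.2 CPM (-0.74 ± 0.13). These 3, and the 3 higher ones below, were taken as the lncRNAs of lowest p without overlap. Such a choice favours genes whose replicates lie close together. With higher values in obesity-prone libraries, A530053G22Rik (identifier 208079, chromosome 6, 60397166 to 60403707) had 45.4, 39.5 and 32.8 against 21.2, 21.6 and 27.8 CPM (0.74 ± 0.16). Gm46565 (identifier 108168305, chromosome 16, 30913321 to 30952778) had 1.65, 0.979 and 3.5005 against 0.584, 0.5102 and 0.356 CPM (2.07 ± 0.47, and 1.44 without obesity-prone replicate 3). Lncenc1 (identifier 100039691, chromosome 13, 97434970 to 97497664) had 1.16, 0.816 and 1.11 against 0.2502, 0.349 and 0.439 CPM (1.56 ± 0.37), and 0.0268 to 0.112 CPM on chow. No strand setting is stated, so reads of a lncRNA cannot be told apart from those of a gene on the opposite strand.

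Leaving out 1 obesity-prone library moved the lists in opposite directions. Without replicate 3 the medians of macrophage, matrix, thermogenesis and respiratory chain genes were 1.01, 0.49, -0.22 and -0.052, and without replicate 2 they were 1.79, 0.96, -0.70 and -0.49. Macrophage genes kept a median above 0 and thermogenesis genes one below 0 in both cases. The median of all genes tested was 0 without replicate 3 and -0.015 without replicate 2.

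**Figure D4:**
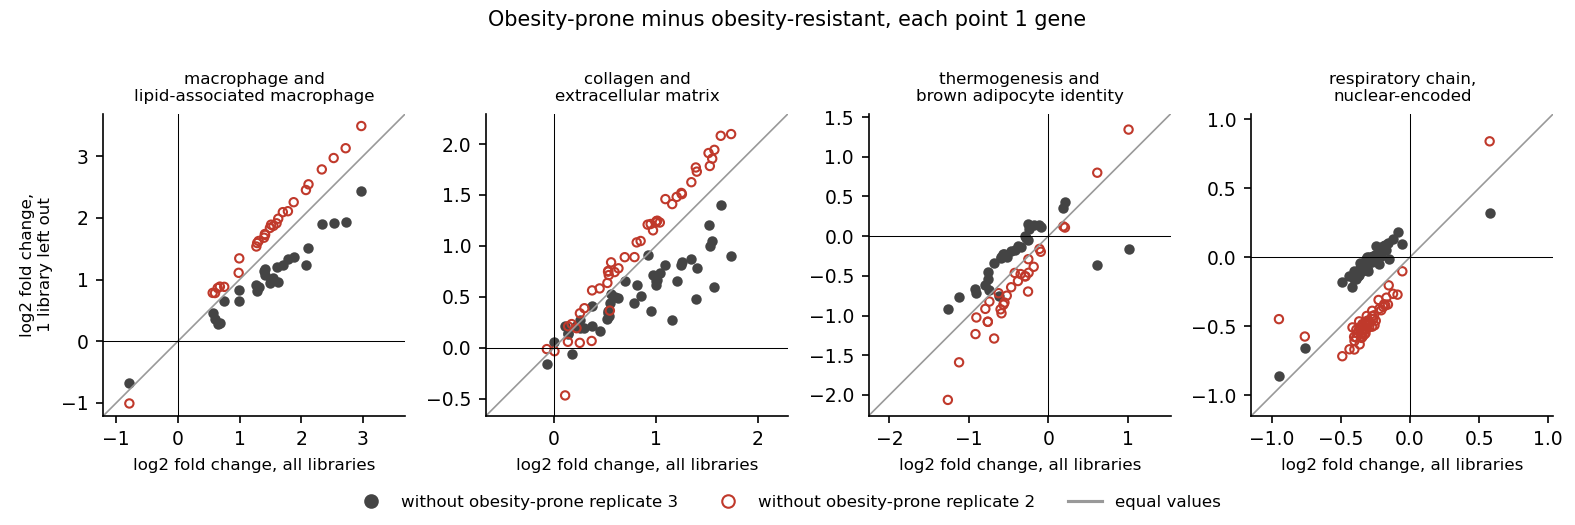
Log2 fold change (obesity-prone minus obesity-resistant) of each member of 4 gene lists with all libraries (x axis) and without 1 obesity-prone library (y axis); filled points leave out replicate 3, open points replicate 2, and the grey line marks equal values. The filled points of the respiratory chain have a median of -0.052 and its open points one of -0.49.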

How the data were processed

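Total RNA of mouse brown adipose tissue was sequenced in 10 libraries, grouped by their labels. Per the labels' protocols, the authors used Bowtie2 2.2.5 against the sequencing company's own gene set and RSEM 1.2.12 for expression. HISAT2 2.0.4 and the build GRCm38.p6 are named in the submitters' processing notes. The strand setting and the annotation release are not given in the sources used here. The deposited table holds expected counts, not normalised, and FPKM values, which scale with the count totals to within 0.132%. Of the expected counts the authors deposited, 30.4% were not whole, and all were rounded. The 6 columns of group means were not used. Gene class and coordinates came from RefSeq (GRCm38.p6), which matched 24350 of 25017 numeric identifiers. The other 7872 genes carry the company's identifiers and entered the fits but are not named. Of the symbols, 26 had been turned into dates and were restored from the identifiers.

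edgeR 4.0.16 (R 4.3.3, limma 3.58.1) was fitted to all 10 libraries in 3 groups with TMM factors, a filter on low counts (filterByExpr, minimum count 10) and robust quasi-likelihood dispersions with 7 residual degrees of freedom, and p-values were adjusted by Benjamini-Hochberg over the 19676 genes tested. The fit was tested on simulated data. List levels used log2 CPM with a prior count of 2, and summed levels used the CPM of all members found. Members also in the general adipocyte list were left out of the summed levels of the other lists. DESeq2 1.42.0, limma on log2(FPKM + 0.5), other scalings, filters and sample sets, and leaving out each library, were alternatives. Of 1087 entries in 40 gene lists, 1068 were found in the table. The members, lists and tests were chosen with earlier results of these data known. Genes were named by rule: the 12 protein-coding genes and 3 lncRNAs of lowest p in each direction without overlap and at 1 CPM or more on average in a diet group (no gene passed the threshold), the 2 members of lowest p in each list with the same mean, and a fixed list. Some named genes are not reported here. A further 11 genes, marked in the text, and the other list members given as examples were chosen after their values were seen.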

Additional observations from a re-analysis of the deposited data

Results flagged for a closer look

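In the 4 chow libraries Fgf21 was far from the others in 1 library. Control replicate 4 held 8.595 CPM and the other 3 held 0.171 to 0.3186 CPM, a gap of 0.982 of the group's range which is above the 95% critical value of Dixon's test. The chow libraries share the estimate of spread with the diet groups, and the log2 fold change of Fgf21 between the diet groups had an SE of 1.23 (edgeR adjusted p = 0.693). It was the 1 value past the limit among 47 chow values checked, where chance passes about 1 in 20.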

How the results depend on the processing

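The count of 0 genes (0 lncRNAs) was 565 (45 lncRNAs) with DESeq2, 871 (64) without obesity-prone replicate 2 and 1 (1), Gm34218 at an edgeR adjusted p of 0.0494, without control replicate 3. Leaving out each library in turn gave 0 to 871 genes and 0 to 64 lncRNAs. The other alternatives gave 0, including an adjusted p below 0.1. Same-numbered libraries did not deviate together (correlations -0.108, -0.065 and 0.206), and the replicate block gave 0 genes and 0 lncRNAs in both fits; the one restricted to the 6 high-fat-diet libraries was added after seeing the data. Of 2852 pairs of a gene followed and an alternative, 2709 kept direction and side of the threshold, 131 kept direction and passed it, and 12 turned direction. Leaving out 1 library at a time gave Cidea -0.386 to 0.139 (above 0 without obesity-prone replicate 3), Adipoq -0.113 to 0.314 (below 0 without obesity-prone replicate 3), Acly -0.114 to 0.040 (above 0 without obesity-prone replicate 3, and 0.013 without obesity-resistant replicate 1), a log2 fold change of Hspa1a from -0.271 to 1.791 and a log2 fold change of Hspa1b from -0.447 to 1.741 (both below 0 without obesity-prone replicate 2). The log2 fold change of Gpc1, near 0 with all libraries, was -0.015 with upper-quartile factors and -9.76e-05 with no filter. Without single libraries it spanned -0.130 to 0.213, and was below 0 in the absence of replicate 1 or 2 of either diet group (-0.00858 and -0.034 for obesity-prone, -0.057 and -0.130 for obesity-resistant). The cause was not tested. Of 880 list medians under alternatives, 30 moved by more than the spread between replicates and 17 changed sign, among them fatty acid oxidation (0.027 without obesity-prone replicate 3), heat shock (-0.271 without obesity-prone replicate 2) and skeletal muscle (0.092 with its own level as covariate). At 35583997 to 37327770 counts per library, precision is lowest for genes near the filter on low counts.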
